A study of Mus musculus with 6 samples.

Results

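The 37 genes described here make up or control the lysosome, here in the dentate gyrus (DG) granule cell layer: 7 proteins of the lysosomal membrane or its transport, 7 cathepsins, the peptidase Tpp1, 7 glycosidases, 5 lipid hydrolases and lipid-binding cofactors, the transcription factor Tfeb and 9 genes of the vacuolar proton pump (V-ATPase). They form a list of gene symbols, matched to the symbols of the array annotation, and all 37 were found among the 19938 genes tested, each with 1 probe set. The mutants came from crosses of Bcl11b flox/flox mice with the tetO-Cre and CaMKIIα-tTA lines, so that Cre was made under the CaMKIIα promoter, which is active in forebrain neurons and not in granule cells alone. The sources used here do not spell out the genotype of the controls of this tet-off line. Mutants and controls alike drank doxycycline from embryonic life until the age of 2 months, and the granule cell layer was cut out by laser 4 weeks after its removal. RNA of 3 mutant and 3 control samples was measured on 1 array each, as log2 expression values.

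Lysosomes break down proteins, sugar chains and lipids delivered by endocytosis and autophagy. The V-ATPase acidifies them by coupling ATP hydrolysis in its cytosolic V1 sector to the passage of protons through its membrane V0 sector, and most of the hydrolases work only at this acid pH. Neurons do not divide and depend on this breakdown throughout life, and inherited loss of many of the enzymes listed here causes storage diseases of the brain.

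Bcl11b itself lay at 9.03, 8.68 and 8.82 on the log2 scale in mutants 1, 2 and 3, against 10.56, 10.40 and 10.30 in controls 1, 2 and 3 (log2 change -1.58, adjusted p = 2.56e-05 from limma). The position of its probes within the gene is not stated, so this value checks the labels only as far as they lie in the deleted part. Prox1, a defining transcription factor of granule cells, was measured between 11.57 and 11.65 in mutants and between 11.45 and 11.81 in controls. This is far above the array medians, which were 6.29 to 6.36 over all probe sets. Of 14 granule cell markers, Prox1 included, 3 were higher (such as Tdo2 with a log2 change of 1.13) and 6 lower (such as C1ql2 with -3.29, Calb1 with -0.97 and Dsp with -0.81). Together these are 64.3% of the list, against 15.2% of all genes tested. The summed linear level of the 14 ran from 29568 to 30384 in mutants and from 38529 to 40056 in controls. This sum includes Dsp, a direct target of Bcl11b according to the paper, and C1ql2, whose promoter the paper proposes that Bcl11b binds. Prox1 had a change of -0.051 (adjusted p = 0.788 from limma). The part of granule cell number in the lower sum was not tested. Of the markers of other cells that such a cut can hold, 3 of 15 were higher for astrocytes (20%) and 2 of 14 for vascular cells (14.3%). Of 12 for CA3 and mossy cells 5 were higher and 2 lower (58.3%). Of 10 for interneurons 1 was higher and 2 lower (30%). These shares stand against 15.2% of all genes tested. No source says that each array holds RNA of a separate animal, and the p-values therefore rest on the spread among these samples, which may be technical. Array weights, limma's estimate of the relative precision of an array, were 0.994 to 1.30 for the mutants and 0.373, 3.06 and 0.545 for controls 1, 2 and 3, so that control 1 and control 3 stood farther from the fit than the other arrays.

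The lysosomal genes as a group lay at nearly the same level in mutant and control granule cells, and a few single members changed. Cd68, Ctsz and Gla were lower in the mutants and Gusb, Asah1 and Neu1 were higher, while the other 31 genes did not pass the test. These 6 of 37 are 16.2% of the members, where 15.2% of all genes tested passed (9.23% higher and 5.93% lower). At an unadjusted p under 0.05 from limma 13 members passed, against 27.2% of all genes. The paper analysed its arrays with BRB-ArrayTools, and its methods name an unpaired t-test for comparisons of groups in general. With this t-test (the methods' t-test below), adjusted as for limma, 3 members passed (Cd68, Gusb and Neu1), against 5.72% of all genes. The median log2 change over the 37 members was 0.0041, against -0.0027 over all genes tested, and 19 members had a positive and 18 a negative change. The typical size of change, taken as the median of its absolute value, was 0.087 for the members and 0.082 for all genes. Of the members, 33 lay at or above the median level of all genes, and 4 of these 33 (12.1%) passed the test, against 25% of all genes at such levels. Mutant and control arrays did not overlap for 15 members, 9 with higher and 6 with lower mutants, where 31.6% of all genes did not overlap (17% higher and 14.6% lower).

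The measurement was narrow enough to set limits on most of these genes. The standard errors of the 37 log2 changes ran from 0.050 to 0.12, with a median of 0.059. For 28 of the 31 members that did not pass, the 95% confidence interval lay within a fold of 1.25 in either direction, which is 0.32 on the log2 scale. The exceptions were Atp6v0b, Glb1 and Hexa, whose intervals reached -0.42, 0.33 and 0.32. Of all 37 members 29 had an interval within this bound, and of all 19938 genes tested 14027 did. Ctsh is among the 28, but its level cannot be separated from background, so its interval sets no limit on its expression. The array count limits the precision of every value, and with 3 arrays in each group the smallest p of an exact permutation test is 0.1.

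**Figure D1:**
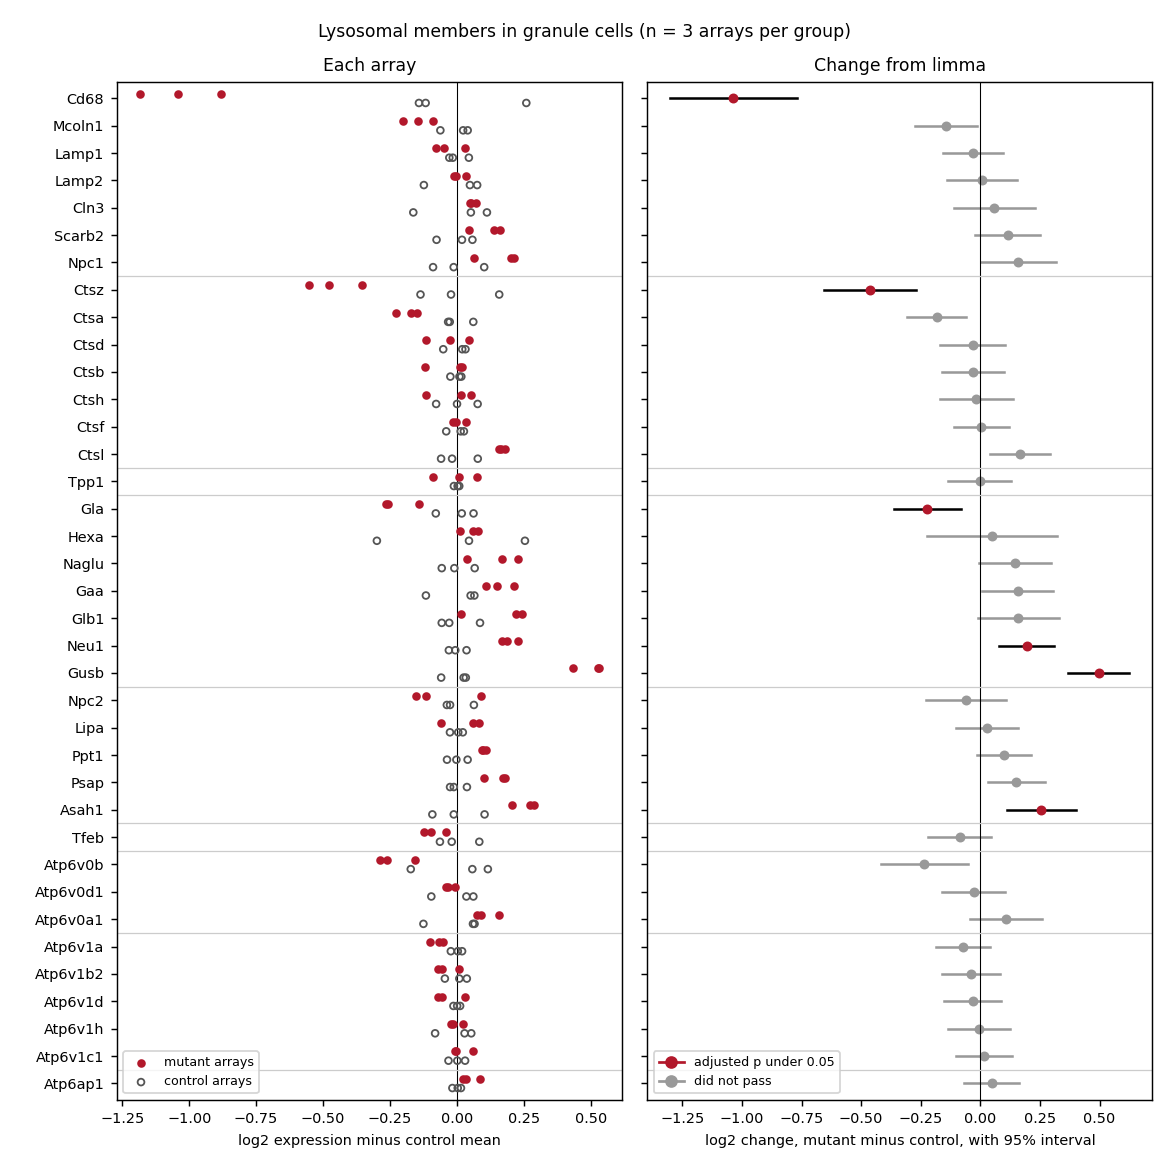
The 37 members, grouped by role. Left: horizontal axis, log2 expression of each array relative to the control mean, with filled circles for the 3 mutant arrays above open circles for the 3 control arrays. Right: log2 change of mutants against controls from limma with its 95% confidence interval. The 6 red points passed the test, and Cd68, with a change of -1.04, lies farthest from 0.

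Among the membrane proteins Cd68 stood apart. Cd68, a heavily glycosylated member of the LAMP family that marks microglia and macrophages, was measured at 6.37, 6.67 and 6.51 on the log2 scale in mutants 1, 2 and 3, against 7.81, 7.44 and 7.41 in controls 1, 2 and 3. Every mutant array lay below every control array, and the mutant level was 48.8% of the control level. The log2 change was -1.04 (standard error 0.12, adjusted p = 0.000539 from limma), and it was between -1.11 and -0.91 when each array was left out in turn. The mutant levels lie close above the array medians, where signal and background cannot be separated, so the size of this decrease is not exact. Lamp1 and Lamp2, the abundant glycoproteins that coat the inner face of the lysosomal membrane, had log2 changes of -0.031 (95% interval -0.16 to 0.094) and 0.0070 (-0.14 to 0.15). Scarb2, which carries β-glucocerebrosidase to lysosomes, had a change of 0.11 and Cln3, the membrane protein of juvenile Batten disease, of 0.058. Neither Lamp gene, nor Scarb2 or Cln3, passed the test.

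The lysosomal calcium channel Mcoln1 lay at 11.18, 11.06 and 11.12 on the log2 scale in mutants, against 11.20, 11.30 and 11.29 in controls. The groups did not overlap, but only by a margin smaller than the spread of either group, and its change of -0.15 did not pass the test (adjusted p = 0.135 from limma). Npc1, which exports cholesterol from lysosomes together with the soluble protein Npc2, had a log2 change of 0.16 (adjusted p = 0.180) and Npc2 of -0.059 (adjusted p = 0.684 from limma). The arrays of both genes overlapped between the groups.

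Of the 7 cathepsins 1 changed (14.3%, against 15.2% of all genes tested). Ctsz, a cysteine carboxypeptidase abundant in microglia, was measured at 9.17, 9.29 and 9.09 in mutants, against 9.62, 9.80 and 9.51 in controls. The highest mutant lay below the lowest control, and the mutant level was 72.6% of the control level (log2 change -0.46, standard error 0.085, adjusted p = 0.00698 from limma). With the methods' t-test its adjusted p was 0.0995. Ctsb, the main lysosomal cysteine protease, and Ctsd, the main aspartic protease, had changes of -0.030 (95% interval -0.16 to 0.10) and -0.031 (-0.17 to 0.11). Ctsf, with a change of 0.0041, and Ctsh, with -0.016, also overlapped between the groups. Ctsh lay between 4.96 and 5.15 on all arrays, under the array medians, where signal and background cannot be separated.

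Ctsl and Ctsa had groups that did not overlap and yet did not pass. Ctsl, a cysteine protease that also processes neuropeptide precursors, lay at 9.32, 9.31 and 9.33 in mutants and at 9.13, 9.09 and 9.23 in controls (log2 change 0.17, adjusted p = 0.0844 from limma). Ctsa, the protective protein that holds neuraminidase and β-galactosidase in a complex, lay at 10.26, 10.31 and 10.33 in mutants and at 10.54, 10.45 and 10.45 in controls (log2 change -0.18, adjusted p = 0.0566 from limma). The adjusted p of Ctsa from limma was 0.0202 with each array centred on its median and 0.0244 with renewed quantile normalization. Ctsa did not pass whichever array was left out (adjusted p between 0.0764 and 0.189 from limma). Tpp1, a serine peptidase that takes tripeptides from the ends of proteins, had a log2 change of -0.0027, with a 95% interval of -0.14 to 0.13.

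Cd68 and Ctsz are both strongly expressed in microglia, which lie between the granule cells of a laser-cut layer. In such samples fewer cells of a type and less RNA per cell cannot be told apart. Of 22 markers of microglia and macrophages, 2 were lower in the mutants (Tmem119 with a log2 change of -0.32 and Ly86 with -0.81) and 0 higher with limma. These 2 are 9.09% of the list, where 15.2% of all genes tested passed and 5.93% were lower. An unadjusted p under 0.05 from limma was found for 7 of the 22, against 27.2% of all genes. Tmem119 kept its call whichever array was left out, and Ly86 lost it without mutant 1, mutant 2 or mutant 3 (adjusted p up to 0.0976 from limma). The median change over the list was -0.17, and 21 of the 22 changes were negative. It was -0.092 without control 3 and -0.24 without control 1, where 10 of the 22 were lower. Of the 22 markers, 12 lay on all 6 arrays under the median of the genes tested, a different bound from the probe set medians above. Their levels, summed on the linear scale, ran from 2191 to 2465 in mutants and from 2380 to 3285 in controls, so the groups overlapped. Control 1, the array with the lowest weight (0.373), had the lowest microglia sum of the controls, 2380, which lies within the range of the mutants. In this array Cd68 had its highest level, 7.81, and Ctsz lay at 9.62, above all mutants. Without control 3, which had the highest sum, the log2 change was -1.11 for Cd68 and -0.53 for Ctsz. The lysosomal genes Ctss and Laptm5, also abundant in microglia and chosen after their values were seen, had changes of -0.12 (adjusted p = 0.682) and -0.23 (adjusted p = 0.235 from limma). Without control 1 Laptm5 passed (-0.35, adjusted p = 0.0135 from limma). Ctss did not pass whichever array was left out, with changes from -0.27 (without control 1) to 0.072 (without control 3). The part of microglia in the lower levels of Cd68 and Ctsz was not tested.

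**Figure D2:**
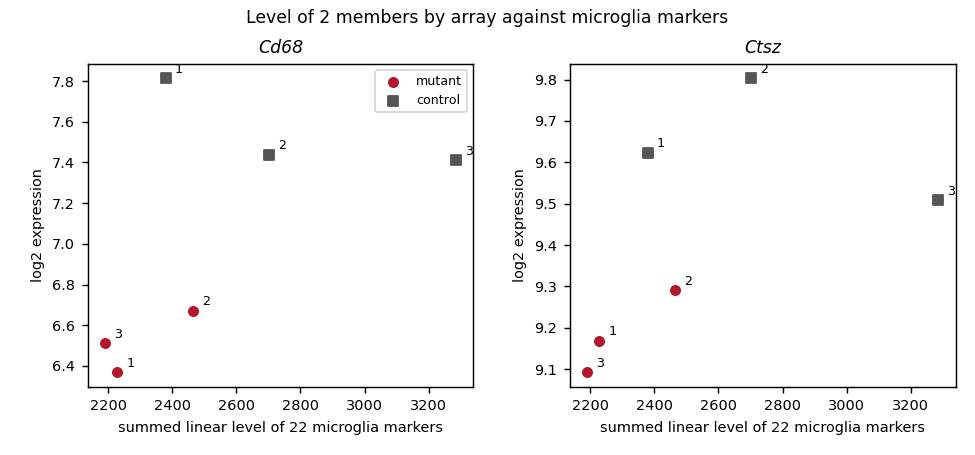
Log2 expression of Cd68 and Ctsz on the vertical axes against the summed linear level of 22 microglia and macrophage markers on the horizontal axis, with numbered circles for mutant arrays and numbered squares for control arrays. Control 1 lies within the range of the mutants on the horizontal axis (2380, against 2191 to 2465) and above them for each gene.

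Of the 7 glycosidases 3 changed (42.9%, against 15.2% of all genes tested), with members in each direction. Gusb, the β-glucuronidase that cuts glucuronic acid from glycosaminoglycans, was measured at 6.69, 6.70 and 6.60 in mutants, against 6.11, 6.19 and 6.20 in controls. The arrays of each group lay within 0.1 of each other and the groups were far apart (log2 change 0.50, standard error 0.056, adjusted p = 0.000565 from limma), and Gusb kept its call whichever array was left out. The mutant level was 141% of the control level, but the controls lie under the array medians, so the size of the increase is not exact. Neu1, the neuraminidase that removes sialic acid, was measured at 8.86, 8.83 and 8.80 in mutants, against 8.67, 8.63 and 8.61 in controls (log2 change 0.19, standard error 0.051, adjusted p = 0.0353 from limma). Gla, the α-galactosidase that is missing in Fabry disease, was measured at 7.79, 7.91 and 7.79 in mutants, against 8.12, 7.97 and 8.07 in controls (log2 change -0.22, standard error 0.062, adjusted p = 0.0431 from limma). The groups did not overlap for either gene, but for Gla the gap between mutant 2 and control 2 was narrow. Gla lost its call whichever array was left out (adjusted p between 0.0516 and 0.152 from limma). Neu1 lost its call whenever an array other than control 1 was left out (0.0860 to 0.132) and kept it without control 1 (0.0244).

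The other 4 glycosidases had positive changes and did not pass. Gaa, the acid α-glucosidase of glycogen breakdown, had a log2 change of 0.16, and its lowest mutant, at 11.11, lay just above its highest control, at 11.07. Glb1, the β-galactosidase of the same complex as Neu1 and Ctsa, also had a change of 0.16, and its arrays overlapped. In this complex the changes were thus 0.19 for Neu1, 0.16 for Glb1 and -0.18 for Ctsa. Naglu, which acts on heparan sulfate, had a change of 0.14. Hexa, a subunit of β-hexosaminidase, was the least precise of the members, with mutants at 9.79, 9.72 and 9.77 and controls at 9.41, 9.75 and 9.96, so its mutant arrays all lay inside the control range.

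Among the lipid hydrolases and their cofactors Asah1 changed. Asah1, the acid ceramidase, was measured at 9.06, 8.99 and 9.07 in mutants, against 8.89, 8.77 and 8.69 in controls (log2 change 0.26, standard error 0.064, adjusted p = 0.0281 from limma). Every mutant lay above every control, and the mutant level was 119% of the control level. Asah1 lost its call whenever an array other than control 1 was left out (adjusted p between 0.0582 and 0.107 from limma) and kept it without control 1 (0.00582). Psap, the precursor of the saposins that present lipids to these enzymes, lay at 13.131, 13.201 and 13.208 in mutants and at 13.067, 13.018 and 13.004 in controls. Its groups did not overlap, and its change of 0.15 did not pass (adjusted p = 0.0972 from limma) but did with a mean-variance trend and robust prior (0.0350) and with array weights (0.0271). Psap did not pass with each array centred on its median (0.224) or whichever array was left out (0.0657 to 0.259 from limma). Ppt1, the thioesterase that removes palmitate from proteins, had a change of 0.10 with groups that did not overlap (adjusted p = 0.254), and Lipa, the acid lipase for cholesteryl esters, a change of 0.027 (adjusted p = 0.827 from limma).

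Of 15 astrocyte markers 3 were higher (Slc1a2 with 0.32, Gfap with 0.54 and Ntsr2 with 0.34) and 0 lower with limma. These 3 are 20% of the list, against 9.23% of all genes. An unadjusted p under 0.05 from limma was found for 4 of the 15, against 27.2% of all genes. The median log2 change was 0.084, and 12 changes were positive and 3 negative. Gfap lost its call without control 2 (adjusted p = 0.0605), and Ntsr2 kept it only without mutant 1 (up to 0.133 from limma). Their summed linear level ran from 15513 to 16934 in mutants and from 13530 to 15234 in controls, with 0 markers under the median of the genes tested on all arrays. The part of astrocytes in the higher levels of Gusb, Neu1 and Asah1 was not tested.

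**Figure D3:**
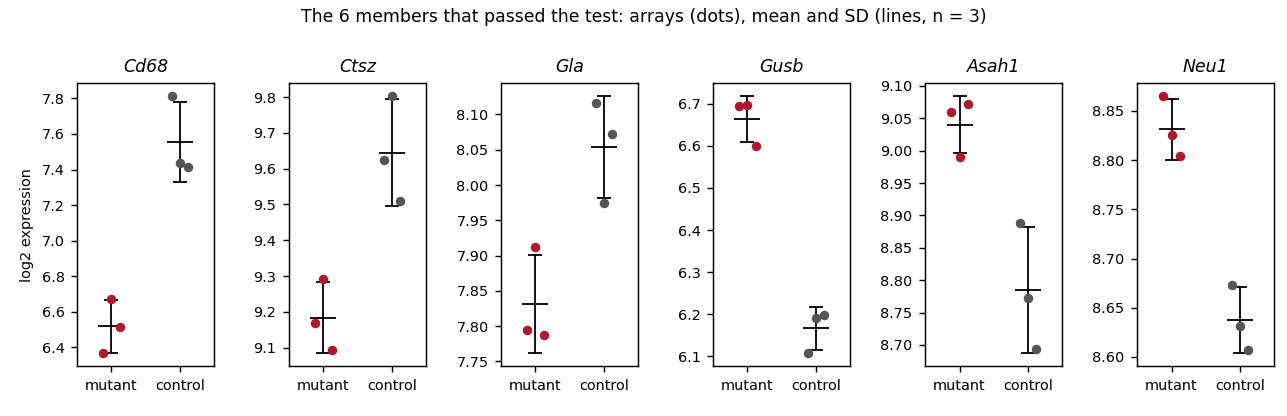
Log2 expression on the vertical axis of the 6 members that passed the test, each with its own scale. Each panel has the mutant arrays as dots on the left and the control arrays on the right, and a line with its bar stands for the mean and SD of 3 arrays. Cd68, Ctsz and Gla are lower in mutants and Gusb, Asah1 and Neu1 higher, and the groups do not overlap in any panel.

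Of the 9 V-ATPase members 0 passed with limma, against 15.2% of all genes, and 0 with the methods' t-test after adjustment, against 5.72%. At an unadjusted p under 0.05 from limma 1 of them, Atp6v0b, passed, against 27.2% of all genes. With so few genes, these counts were not tested against the shares. The median log2 change of the 9 members was -0.028, and the changes ran from -0.23 to 0.11. In the V1 sector the catalytic subunit Atp6v1a lay at 12.73, 12.68 and 12.72 in mutants and at 12.79, 12.80 and 12.76 in controls. Its groups did not overlap, but the change was only -0.075 (95% interval -0.19 to 0.039). The nucleotide-binding subunit Atp6v1b2 had a change of -0.040, the stalk subunits Atp6v1c1 and Atp6v1d of 0.015 and -0.032 and the regulatory subunit Atp6v1h of -0.0050, each with overlapping groups. Over the 5 members of V1 the 95% intervals reached from -0.19 to 0.13. In the V0 sector Atp6v0d1, which joins the ring to the stalk, had a change of -0.028, and the a subunit Atp6v0a1 of 0.11. Atp6v0b, a proteolipid of the proton-conducting ring, lay at 11.24, 11.21 and 11.34 in mutants and at 11.33, 11.56 and 11.61 in controls, so mutant 3 overlapped control 1. Its change of -0.23 did not pass (adjusted p = 0.0930 from limma) but did without control 1 (-0.32, adjusted p = 0.00580) and with each array centred on its median (-0.28, adjusted p = 0.0467). Atp6v0b did not pass with any other array left out (adjusted p up to 0.262 from limma). The accessory protein Atp6ap1 had a change of 0.047, with a 95% interval of -0.067 to 0.16.

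Tfeb, the transcription factor that switches on many lysosomal genes when nutrients are short, lay at 6.75, 6.81 and 6.73 in mutants and at 6.94, 6.79 and 6.83 in controls, with overlapping groups. Its log2 change was -0.087 (95% interval -0.22 to 0.047, adjusted p = 0.405 from limma). TFEB and its relatives bind the CLEAR motif, whose core TCACGTGA contains the E-box CACGTG. RefSeq promoter windows, from 250 bases before to 50 bases after a start site in GRCm38.p6, were matched to 30 of the 37 members and to 15563 of the genes tested. Both sequences read the same on either strand. The core stood in a window of 7 of the 30 members, against 1.53% of the genes tested, and in 0.974% of all 32851 windows. The E-box stood in 14 of the 30 members, against 9.52% of genes (7.15% of windows). Since TFEB switches on many lysosomal genes, a list of lysosomal genes is not independent of the CLEAR motif. Stretches of 6 of the promoters with the core are shown. The windows of Ctsa and Gla hold 2 copies each, of which the first is shown. The stretches run 5′ to 3′ on the strand of the gene and end before the start site, with the core in capitals.
Cln3 (chr7:126583331-126583378, minus strand): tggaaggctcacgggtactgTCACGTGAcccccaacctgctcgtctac
Ctsa (chr2:164833740-164833772, plus strand): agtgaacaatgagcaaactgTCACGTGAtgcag
Ctsd (chr7:142387899-142387946, minus strand): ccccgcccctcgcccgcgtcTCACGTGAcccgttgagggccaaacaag
Gla (chrX:134601206-134601253, minus strand): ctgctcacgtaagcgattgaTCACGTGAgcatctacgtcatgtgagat
Mcoln1 (chr8:3500453-3500500, plus strand): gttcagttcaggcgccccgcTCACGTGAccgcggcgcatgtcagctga
Atp6v1a (chr16:44139364-44139411, minus strand): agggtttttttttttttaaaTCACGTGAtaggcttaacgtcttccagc

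Of the 7 members with the core, which are these 6 and Atp6v0d1, Gla was the only one that passed the test, and 4 of the 23 members without it passed. The log2 changes of the 7 were negative for 6 of them (Gla -0.22, Ctsa -0.18, Mcoln1 -0.15, Atp6v1a -0.075, Ctsd -0.031 and Atp6v0d1 -0.028) and positive for Cln3 (0.058), with a median of -0.075, against a median of 0.047 over the 23 members without the core. This split was seen after the values and was not tested. Over all 238 genes with the core the median was 0.0079, with 21 higher and 18 lower (16.4% called). Of 14 genes of the other lysosomal lists with the core 1 was higher (Slc36a1) and 3 lower (Dpp7, Pip4p1 and Vps16), and 7 changes were negative, with a median of -0.019. A match of these letters is no proof that a factor binds there.

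The other genes of the organelle, 182 measured in 6 lists, were described in the same way. Of them 16 were higher and 19 lower in mutants, which is 19.2%, against 15.2% of all genes tested. Their median log2 change was 0.0044. Of the 182, 155 lay at or above the median level of all genes, where 25% of all genes passed. Of 27 further V-ATPase subunits and assembly factors, 3 were higher and 2 lower (18.5%, against 15.2% of all genes tested). Tcirg1, the a3 isoform of the V0 sector known from osteoclasts and macrophages, lay at 6.39, 6.53 and 6.49 in mutants, against 7.02, 7.16 and 7.01 in controls (log2 change -0.59, adjusted p = 0.000470 from limma), near the array medians. The G subunit of V1 has a ubiquitous isoform, Atp6v1g1, and a brain isoform, Atp6v1g2. Atp6v1g1 lay between 10.00 and 10.07 in mutants and between 10.20 and 10.36 in controls (log2 change -0.22, adjusted p = 0.0439), and Atp6v1g2 between 12.50 and 12.60 in mutants and between 12.30 and 12.40 in controls (log2 change 0.21, adjusted p = 0.0377 from limma). Both isoforms lost their calls whenever an array other than control 1 was left out (adjusted p up to 0.144 for Atp6v1g1 and 0.139 for Atp6v1g2 from limma). Dmxl2, a subunit of the rabconnectin complex that assembles V1 on V0, rose by 0.22 on the log2 scale, and lost its call without mutant 1, mutant 2, control 2 or control 3 (adjusted p up to 0.104 from limma). Tldc2, a protein of the TLDc family that binds V1, with 0.23, lay under the array medians on all arrays, where signal and background cannot be separated, and lost its call whenever an array other than control 1 was left out (up to 0.145), and Vma21, an assembly chaperone of V0, had a change of -0.18 that did not pass (adjusted p = 0.0586 from limma).

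Of 38 further proteases and hydrolases 5 were higher and 4 lower (23.7%, against 15.2% of all genes tested). Ctso, a cysteine cathepsin, lay at 8.55, 8.72 and 8.74 in mutants, against 8.03, 8.20 and 8.21 in controls (log2 change 0.52, adjusted p = 0.00194 from limma). Manba, the β-mannosidase, rose by 0.48, and its control levels, 6.10 to 6.25, lay under the array medians. Plbd2, a phospholipase B-like protein of lysosomes, lay at 8.90, 9.10 and 9.02 in mutants, against 9.94, 9.56 and 9.55 in controls (log2 change -0.68, adjusted p = 0.00308 from limma). Galc, which breaks down the myelin lipid galactosylceramide, had a change of -0.42. These 4 genes kept their calls when each array was left out in turn. Galns and Arsa, sulfatases that were higher by 0.42 and 0.27, lost theirs without mutant 1, mutant 3 or control 3, and Arsa also without mutant 2 (adjusted p up to 0.0961 for Galns and 0.0878 for Arsa from limma). Of 15 oligodendrocyte markers, in whose cells Galc is abundant, 2 were lower (Ermn with -1.71 and Ugt8a with -0.34) and 0 higher with limma. This is 13.3%, against 15.2% of all genes tested. An unadjusted p under 0.05 from limma was found for 6 of the 15, against 27.2% of all genes, and the median change was -0.13. Ermn kept its call whichever array was left out, and Ugt8a kept it only without mutant 2 or control 1 (adjusted p up to 0.0919 from limma). The summed linear level of the 15 markers ran from 3173 to 3630 in mutants and from 3792 to 3990 in controls. On all arrays 5 of them lay under the median of the genes tested. The part of oligodendrocytes in the change of Galc was not tested.

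Of 37 further membrane proteins, channels and transporters 5 were higher and 4 lower (24.3%, against 15.2% of all genes tested). The sialic acid exporter Slc17a5 had a log2 change of -0.29 and Pip4p1, a phosphatase that places lysosomes in the cell, of -0.26. The amino acid transporter Slc36a1 had a change of 0.36, the nucleoside transporter Slc29a3 of 0.34 and Laptm4a of 0.33. These 5 kept their calls whichever array was left out, and Mfsd8, the membrane protein of a form of Batten disease, with -0.33, kept its call except without mutant 1 (adjusted p = 0.0523 from limma).

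Of 23 genes that sort enzymes to lysosomes 1 was higher and 3 lower (17.4%, against 15.2% of all genes tested). Ap1s1, a subunit of the AP-1 coat at the Golgi, lay at 10.31, 10.34 and 10.46 in mutants, against 10.93, 10.98 and 11.08 in controls (log2 change -0.63, adjusted p = 0.000351 from limma). Ap1s1 kept its call whichever array was left out. Vps16 of the HOPS tether, with -0.28, lost its call without mutant 2, mutant 3 or control 2 (adjusted p up to 0.0959 from limma). Sort1, a sorting receptor, with -0.19, lost its call whichever array was left out (up to 0.174), and Gga2, an adaptor for sorting receptors, with 0.38, whenever an array other than control 1 was left out (up to 0.156). Vps26a of the retromer, with 0.19, and Ap3d1 of the AP-3 coat, with 0.17, did not pass (adjusted p = 0.0517 and 0.115 from limma).

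Of 22 genes for relatives of Tfeb and for mTORC1 signalling at the lysosome 0 were higher and 4 lower with limma. This is 18.2%, against 15.2% of all genes tested. An unadjusted p under 0.05 from limma was found for 8 of the 22, against 27.2% of all genes. Mitf, a relative of Tfeb, lay at 7.45, 7.29 and 7.34 in mutants, against 8.06, 8.09 and 7.85 in controls (log2 change -0.64, adjusted p = 0.000710 from limma). Fnip2, a partner of folliculin in the activation of mTORC1, lay at 8.66, 8.44 and 8.50 in mutants, against 9.17, 9.19 and 9.13 in controls (log2 change -0.63, adjusted p = 0.000405 from limma). Both kept their calls whichever array was left out. Over all alternatives of processing, however, the log2 change of Mitf ran from -0.71 to -0.34, so its size is not exact. Rraga, a Rag GTPase that recruits mTORC1, with -0.20, lost its call whichever array was left out (adjusted p up to 0.139 from limma). Lamtor1, the membrane anchor of the Ragulator complex, with -0.27, kept its call only without mutant 3 or control 1 (up to 0.166 from limma). The call of Lamtor1 was also lost when the probe sets of each gene were averaged. Lamtor4 and Fnip1, with -0.18 and -0.16, did not pass. Of 35 autophagy genes 2 were higher and 2 lower (11.4%, against 15.2% of all genes tested). Atg101, a subunit of the ULK1 kinase complex that starts autophagy, fell by 0.38 on the log2 scale and kept its call whichever array was left out. Uvrag, with 0.25, lost its call without mutant 1, mutant 3 or control 2 (adjusted p up to 0.0584 from limma). Atg5, with -0.23, and Atg7, with 0.21, lost theirs whenever an array other than control 1 was left out (up to 0.0763 for Atg5 and 0.152 for Atg7). Atg2a and Rubcn, with 0.28 and 0.21, did not pass.

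**Figure D4:**
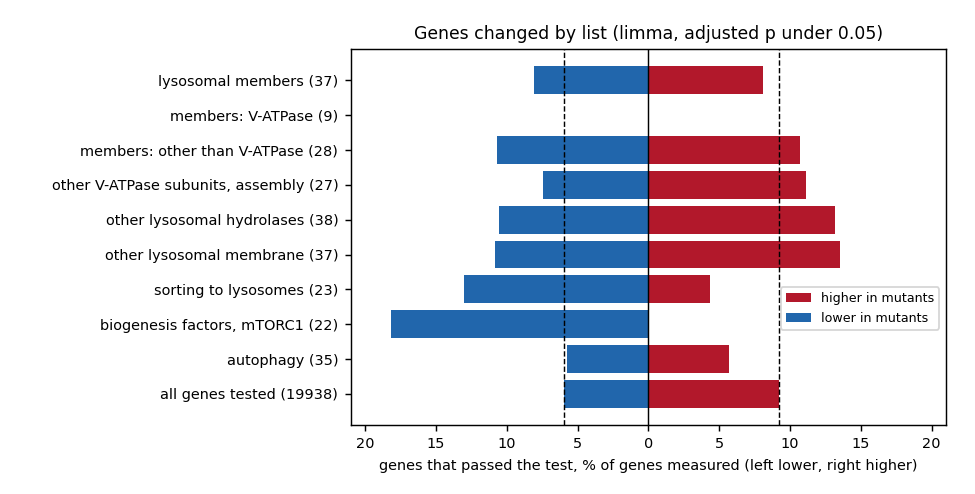
Genes of each list that passed the test, in percent of those measured (horizontal axis). Bars to the right of 0 are genes higher in mutants and bars to the left genes lower in mutants, numbers in brackets count the genes measured, and dashed lines mark 9.23% and 5.93%, the values for all genes. The 9 V-ATPase members show no bar, and the 37 lysosomal members have 3 genes on each side.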

How the data were processed

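The authors deposited log2 expression values of 35556 probe sets from 6 one-colour whole-transcript arrays, made by RMA (background correction, quantile normalization, 1 value per probe set) in Affymetrix Expression Console. RMA sets all arrays to the same distribution and so takes out any shift shared by most genes. Software versions and the genome build of the probes are not stated. Of the probe sets, 21789 were assigned to a single gene, and the brightest on average stood for each of 19938 genes. Mutants were tested against controls in limma 3.58.1 (R 4.3.3, moderated linear model without covariates), p-values were adjusted by Benjamini-Hochberg over all genes, and 0.05 was the threshold. The fit was checked on simulated data. Named are all members, up to 6 genes of smallest p from each other lysosomal list, up to 3 changed markers of each cell type beside a result, Prox1, Calb1, Dsp and Bcl11b; Ctss, Laptm5 and Dpp7 were chosen after their values were seen. The members and lists were chosen with earlier results of these data known. Detection calls were not used here, so dim genes cannot be told from background, and the number of arrays limits precision. Alternatives were the methods' t-test, a robust prior with a trend in the variance, array weights, leaving out genes under a mean log2 of 7.06, averaging the probe sets of a gene, renewed quantile normalization, median centring, the replicate number as a block, a threshold of 0.01 and each array left out.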

Additional observations from a re-analysis of the deposited data

How the results depend on the processing

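Cd68, Ctsz and Gusb passed in every alternative that tested them, except Ctsz with the methods' t-test after adjustment, while Gla, Asah1 and Neu1 lost their calls in 8 to 10 of 16 alternatives. No called member changed sign. Members higher and lower were 2 and 1 with the methods' t-test after adjustment, 6 and 6 without adjustment, 6 and 6 with array weights, 1 and 5 with centring on array medians and 1 and 2 at a threshold of 0.01. With array weights the members that gained a call were Ctsl, Npc1 and Psap (higher) and Ctsa, Mcoln1 and Atp6v0b (lower). Numbers of members higher and lower were 1 to 3 and 2 to 3 when each array was left out in turn. Genes higher and lower, 1840 and 1183 in the analysis reported, were 694 and 447 with the methods' t-test after adjustment, 2550 and 1995 without it, 3156 and 2371 with array weights, 1423 and 1800 with centring and 1018 and 536 at a threshold of 0.01. Leaving out each array gave 1206 to 2756 higher and 678 to 1731 lower, the most without control 1. The median log2 change over the members was -0.022 with renewed quantile normalization, -0.044 with centring and between -0.022 (without control 1) and 0.017 with each array left out. The cause of these shifts was not tested. The deviations of same-numbered arrays had correlations of 0.16, -0.033 and 0.12, and 1 is not over 0.1, so the numbers were not taken to pair the samples. With the replicate block 2 members were higher and 2 lower, and 1925 genes were higher and 1251 lower. The 3 arrays in each group and levels near the array medians limit what could be called, above all for Gusb, Cd68, Ctsh and Tfeb.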
